A study of Homo sapiens with 2 samples.

Results

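ARID4B/GGPS1, CBX5/HNRNPA1, RBBP4/ZBTB8OS, S100PBP/YARS1 and PSME2/RNF31 are 5 divergent gene pairs, in which neighbouring genes on opposite strands are transcribed away from each other from start sites that lie close together. The 5 pairs (10 of 19970 annotated protein-coding genes) were chosen by name from pairs that hold a G-quadruplex (G4) peak, so the presence of a peak at them chose the members and is a description, not a finding. All peaks within 1 kb of any annotated start of the 10 genes were taken, which gave 5 of the 515 peaks of the wild-type (WT) list and 3 of the 92 peaks of the DNMT1-KO list. In the whole annotation there were 912 divergent protein-coding pairs with canonical starts at most 1000 bp apart, and 82 of these (8.99%) had a WT promoter peak and 7 (0.768%) a DNMT1-KO promoter peak.

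G4s were mapped by CUT&Tag, in which a transposase guided by an antibody cuts and tags the DNA next to the bound target. HEK293T cells, an established line from human embryonic kidney, were used, with 1 peak list of WT cells and 1 of cells whose genotype is labelled as a DNMT1 mutant (DNMT1-KO). By the methods of the study, the mutant was made with CRISPR/Cas9, is a line grown from a single clone, and carries an insertion in the coding sequence that keeps the reading frame, with DNMT1 reduced at the mRNA and protein level. Both groups were grown in the same medium, and the labels give no treatment. Peak lists hold no expression values, so neither the loss of DNMT1 nor the cell type could be checked in them. The sample labels name the antibody BG4, whereas all 515 and 92 peak names carry 1H6, so the antibody behind these lists is uncertain. There was 1 list per genotype, with no replicate values, so differences between genotypes were not tested and each value describes these 2 lists. Both lists are far shorter than the peak sets described in the study, so the lack of a peak in a list, and the shares of pairs with a peak, hold for these lists alone.

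Divergent promoters often share a nucleosome-depleted, CpG-rich stretch from which both genes are transcribed. A G4 is a stack of guanine tetrads that a strand with 4 nearby runs of guanine can fold into, and it is commonly detected at open, active promoters. DNMT1 copies cytosine methylation at CpG sites onto the new strand after replication, and CpG-rich promoters are mostly unmethylated.

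The guanine-run motifs within the WT peaks are shown first, because their strand and place relative to the start sites differ between pairs. A motif was defined as 4 runs with a minimum of 3 G each and 1 to 12 bases in each loop between them, searched on both strands. All positions are in hg38, all sequences were read from that genome 5′ to 3′ on the strand of the motif, and capitals mark the runs of 3 or more G. The first, at chr1:235328503-235328532 (plus strand), lay between the starts of ARID4B and GGPS1, and those at chr1:235328801-235328848 and chr1:235328935-235328969 (both plus strand) in an intron of GGPS1. The CBX5 motif at chr12:54279884-54279921 (minus strand) lay in an intron of CBX5, and the RBBP4 motif at chr1:32651327-32651366 (plus strand) in an intron of RBBP4. The S100PBP/YARS1 motifs at chr1:32817469-32817497 and chr1:32817597-32817621 (both plus strand) lay between the starts, as did the 3 rightmost of the 5 PSME2/RNF31 motifs, at chr14:24147007-24147036, chr14:24147069-24147088 and chr14:24147121-24147150 (all plus strand).
ARID4B/GGPS1, between the starts: GGGGGcGGGGGGGaggtgaaaGGGGcGGGG
ARID4B/GGPS1, GGPS1 intron, left: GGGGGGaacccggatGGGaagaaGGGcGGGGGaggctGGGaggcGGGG
ARID4B/GGPS1, GGPS1 intron, right: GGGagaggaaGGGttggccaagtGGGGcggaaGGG
CBX5/HNRNPA1, CBX5 intron: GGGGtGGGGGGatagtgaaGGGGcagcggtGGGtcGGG
RBBP4/ZBTB8OS, RBBP4 intron: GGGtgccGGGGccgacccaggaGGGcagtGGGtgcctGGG
S100PBP/YARS1, left motif: GGGcacggtGGGcggtgcggaGGGcGGGG
S100PBP/YARS1, summit motif: GGGGtaGGGGaggtcGGGGaGGGGG
PSME2/RNF31, motif 3 of 5 from the left: GGGaGGGGcagccagaGGGagcgcctGGGG
PSME2/RNF31, motif 4 of 5 from the left: GGGcaGGGGttGGGtgaGGG
PSME2/RNF31, motif 5 of 5 from the left: GGGGcGGGactcgctcgagaGGGGttaGGG
These are 10 of the 13 motifs in the WT peaks. The other 3 are given by position only, at chr1:32651252-32651303 in RBBP4 (minus strand) and at chr14:24146793-24146826 and chr14:24146900-24146952 between PSME2 and RNF31 (plus strand). Searched beyond the peak, the motif at chr14:24146793-24146826 extends to the left of the peak edge. Its position here is that of the part found within the peak. Motif 4 of PSME2/RNF31, of 20 bases, was the shortest of the 13 motifs in the WT peaks, and the only one that held no CpG.

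To compare where the signal was highest, 30 bases around each WT summit are shown on the plus strand. In the first 3 sequences, which hold no motif, capitals mark runs of 3 or more G or C. In the last 2, capitals mark the part of a motif that falls in the 30 bases.
ARID4B/GGPS1, chr1:235328562-235328591: gcctgcgcagtgtgaccGGGatggcgcatt
CBX5/HNRNPA1, chr12:54280225-54280254: cgccgtaggttcactgcctactcctgCCCg
RBBP4/ZBTB8OS, chr1:32650818-32650847: ggttctttCCCCCgcttcaCCCCCaaaatt
S100PBP/YARS1, chr1:32817584-32817613: gcccggctgactcGGGGTAGGGGAGGTCGG
PSME2/RNF31, chr14:24146892-24146921: gaagtccaGGGTTGGGGTAAGAGAGGTGGG
The S100PBP/YARS1 and PSME2/RNF31 summits thus lay inside a motif. The nearest motif was 45 bp from the ARID4B/GGPS1 summit, 319 bp from the CBX5/HNRNPA1 summit and 419 bp from the RBBP4/ZBTB8OS summit.

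ARID4B/GGPS1 had the highest signal of the 5. ARID4B encodes a subunit of the SIN3A histone deacetylase corepressor, and GGPS1 encodes geranylgeranyl diphosphate synthase, which makes the lipid used to prenylate many small GTPases. The WT peak, at chr1:235328287-235329044 (758 bp), had 115 fragments over its summit (95% Poisson interval 94.9 to 138), a fold enrichment of 10.3 over local background and a −log10 p-value of 77.4 from the peak caller. By fragments and by −log10 p-value it was the 1st of the 437 WT peaks at protein-coding promoters, and by −log10 p-value it was the 10th of all 515 WT peaks. By fold enrichment it was the 7th and the 20th, respectively. The local background at this peak was 10.3 fragments, against a median of 3.26 over the 437 peaks. The DNMT1-KO peak, at chr1:235328314-235329021 (708 bp), lay wholly inside the WT peak and had 51 fragments (38.0 to 67.1) and a fold enrichment of 9.53. Among the 35 DNMT1-KO peaks at protein-coding promoters it was the 2nd by fragments, the 3rd by −log10 p-value and the 4th by fold enrichment. The fragments are whole numbers recovered from the fold enrichment and −log10 p-value, and their intervals cover counting error only.

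The ARID4B/GGPS1 signal was not centred between the genes. The canonical starts lie 391 bp apart, at 235328179 for ARID4B (minus strand) and 235328570 for GGPS1 (plus strand). The WT summit, at 235328577, lay 7 bp downstream of the GGPS1 start in its first exon, in the 5′ UTR of the canonical transcript, and 398 bp from the ARID4B start. The DNMT1-KO summit, at 235328573, was 4 bp to the left of the WT one. The same bases are also annotated as exon in a second protein-coding gene, ENSG00000285053. Of the annotated transcripts, 7 of 8 for GGPS1 and 0 of 13 for ARID4B began within the WT peak. All 3 motifs in the peak were on the plus strand, the coding strand of GGPS1. A further motif on the minus strand between the starts lay to the left of both peaks.

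CBX5/HNRNPA1 had its summit near the other end of the interval, on the side of the minus-strand gene. CBX5 encodes heterochromatin protein HP1 alpha, which binds methylated histone tails in silent chromatin, and HNRNPA1 encodes an abundant RNA-binding protein that regulates splicing and can bind and unfold G4s. The starts lie 604 bp apart, at 54280122 for CBX5 and 54280726 for HNRNPA1. The WT peak, at chr12:54279827-54280762 (936 bp), was the longest of the 5 and covered the whole interval. It had 51 fragments (38.0 to 67.1), a fold enrichment of 9.10 and a −log10 p-value of 34.9. Its summit, at 54280240, lay 118 bp from the CBX5 start and 486 bp from the HNRNPA1 start, at 19.5% of the way from CBX5 to HNRNPA1.

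The DNMT1-KO peak of CBX5/HNRNPA1 was shorter and covered 57.4% of the interval between the starts, from the CBX5 end. It ran from 54279789 to 54280468 (680 bp), ended 294 bp to the left of the WT end, and stopped 258 bp short of the HNRNPA1 start. Its summit, at 54280246, was 6 bp from the WT one. It had 22 fragments (13.8 to 33.3) and a fold enrichment of 6.77. The WT peak held the starts of 14 HNRNPA1 transcripts, and the DNMT1-KO peak those of 1, while both held 2 CBX5 starts. Between the starts there was no motif on either strand. The only motif in the peak was on the minus strand in the CBX5 intron, on the coding strand of CBX5. Both summits fell in a 5′ UTR exon of 1 HNRNPA1 transcript that starts early, and outside the canonical transcripts of both genes.

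RBBP4/ZBTB8OS had a WT peak only. RBBP4 encodes a histone-binding chaperone shared by several chromatin complexes, and ZBTB8OS encodes archease, a cofactor of the tRNA ligase complex. The starts lie 658 bp apart, at 32650550 for ZBTB8OS (minus strand) and 32651208 for RBBP4 (plus strand). The WT peak, at chr1:32650547-32651413 (867 bp), covered the whole interval and had 36 fragments (25.2 to 49.8), a fold enrichment of 6.40 and a −log10 p-value of 20.0. The summit, at 32650833, was the nearest of the 5 to the midpoint, 46 bp to its left. The peak held the starts of 7 ZBTB8OS and 12 RBBP4 transcripts.

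At RBBP4/ZBTB8OS the motifs lay far from the summit. Both motifs in the peak were inside RBBP4, 1 on the minus strand in the 5′ UTR of the canonical transcript at chr1:32651252-32651303 and the other on the plus strand in an intron, 419 and 494 bp from the summit. No motif lay between the starts, although this stretch had 9 runs of at least 3 G and 20 runs of at least 3 C. To show this, the longest part of the peak that lies between the starts and in no annotated UTR is given on the plus strand, with runs of 3 or more G or C in capitals.
RBBP4/ZBTB8OS, chr1:32650904-32651141: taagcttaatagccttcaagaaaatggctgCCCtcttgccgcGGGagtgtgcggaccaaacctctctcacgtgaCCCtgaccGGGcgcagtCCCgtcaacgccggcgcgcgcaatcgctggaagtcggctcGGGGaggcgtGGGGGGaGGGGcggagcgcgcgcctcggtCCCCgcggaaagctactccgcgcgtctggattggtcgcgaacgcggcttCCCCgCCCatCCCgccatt
These 238 bases held 32 CpGs, and the runs were too few or too far apart to make a motif.

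S100PBP/YARS1 also had a WT peak only. S100PBP encodes a binding partner of the calcium-binding protein S100P, and YARS1 encodes the cytoplasmic tyrosyl-tRNA synthetase. The starts are the closest of the 5 pairs, 295 bp apart, at 32817358 for YARS1 (minus strand) and 32817653 for S100PBP (plus strand). The WT peak, at chr1:32817372-32817956 (585 bp), began 14 bp inside the YARS1 start and had 41 fragments (29.4 to 55.6), a fold enrichment of 6.44 and a −log10 p-value of 22.3. The summit, at 32817599, lay 54 bp upstream of the canonical S100PBP start and 241 bp from the canonical YARS1 start. By other annotated transcripts it fell in an exon of 4 S100PBP transcripts and of 1 YARS1 transcript, 7 bp from the nearest S100PBP start. Of the transcripts, 10 of 16 for S100PBP and 0 of 14 for YARS1 began in the peak. The nearest YARS1 start lay 1 bp outside the peak, so the 0 depends on where the edge was called. Both motifs were on the plus strand, the coding strand of S100PBP, and lay between the starts. RBBP4/ZBTB8OS and S100PBP/YARS1 are neighbours on chromosome 1, with 165958 bases between their peaks and 0 other WT peaks there.

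PSME2/RNF31 had the lowest signal and the most motifs. PSME2 encodes a subunit of a proteasome activator that is induced by interferon gamma, and RNF31 encodes the catalytic subunit of the linear ubiquitin chain assembly complex. The starts lie 888 bp apart, at 24146610 for PSME2 (minus strand) and 24147498 for RNF31 (plus strand). The WT peak, at chr14:24146788-24147259 (472 bp), lay wholly between these canonical starts, 178 bp from the PSME2 start and 239 bp from the RNF31 start. It had 27 fragments (17.8 to 39.3), a fold enrichment of 6.11 and a −log10 p-value of 15.5, which was the 287th of the 515 WT peaks. Of the annotated transcripts, 2 of 18 for PSME2 and 3 of 36 for RNF31 began within the peak. Its summit fell in exons of 3 PSME2 and 3 RNF31 transcripts. All 5 motifs in the peak were on the plus strand, the coding strand of RNF31, and lay between the canonical starts.

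The DNMT1-KO peak of PSME2/RNF31, at chr14:24146817-24147259 (443 bp), had the same right end as the WT peak and lay wholly inside it. It had 21 fragments (13.0 to 32.1) and a fold enrichment of 6.51. Its summit, at 24147104, was 197 bp to the right of the WT summit at 24146907, so that it moved from 33.4% to 55.6% of the way from PSME2 to RNF31. The WT summit lay inside a motif, and the nearest motif to the DNMT1-KO summit was motif 4 of the 5, 16 bp away. The summits differed by 4 and 6 bp at ARID4B/GGPS1 and CBX5/HNRNPA1. At the 3 other divergent pairs with both peaks they differed by 399 bp at GART/SON, 123 bp at MYO9A/SENP8 and 0 bp at H2BC11/H2AC11, so the shift at PSME2/RNF31 was within the range of these. With 1 list per genotype and 27 and 21 fragments, the error of a summit position is unknown.

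**Figure D1:**
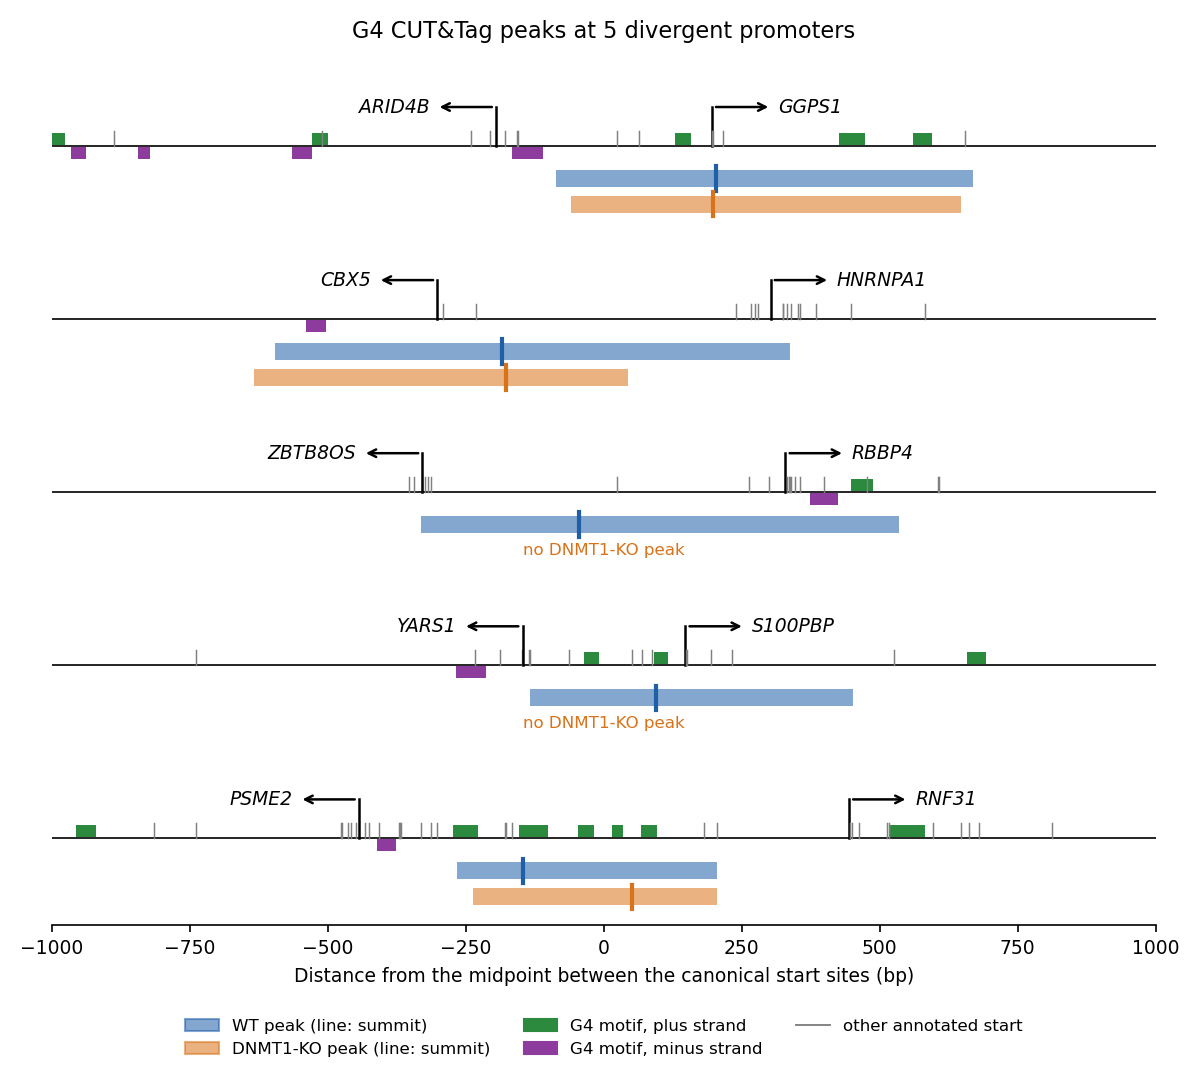
Map of the 5 promoters, centred on the midpoint between the canonical starts (x axis, bp). Arrows are canonical starts, thin lines other annotated starts, green and purple boxes motifs on the plus and minus strand, and blue and orange bars the WT and DNMT1-KO peaks with the summit as a line. In 4 of 5 pairs the WT summit lies between the starts, and in ARID4B/GGPS1 it lies 7 bp beyond the GGPS1 start.

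Across the 5 pairs, the WT summit lay between the canonical starts in 4. In the 77 other divergent pairs with a WT peak it did so in 41 (53.2%, interval 41.5 to 64.7%). The distance of the summit from the midpoint was 46 to 202.5 bp (median 147 bp), and the median was 144.5 bp in the other 77 pairs. The summit was 4 to 70 bp from the nearest annotated start of either gene (median 20 bp), against a median of 91 bp in the others. The 5 pairs had starts 295 to 888 bp apart (median 604 bp), whereas the median was 347 bp for the other pairs with a WT peak and 233 bp for all 912 pairs. The canonical starts set this count. With the outermost annotated starts within 1 kb of the canonical ones all 5 summits lay between the starts. With the innermost, an interval existed in 3 pairs, and 0 of these 3 summits lay in it, while at S100PBP/YARS1 and PSME2/RNF31 the innermost starts cross and leave none.

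**Figure D2:**
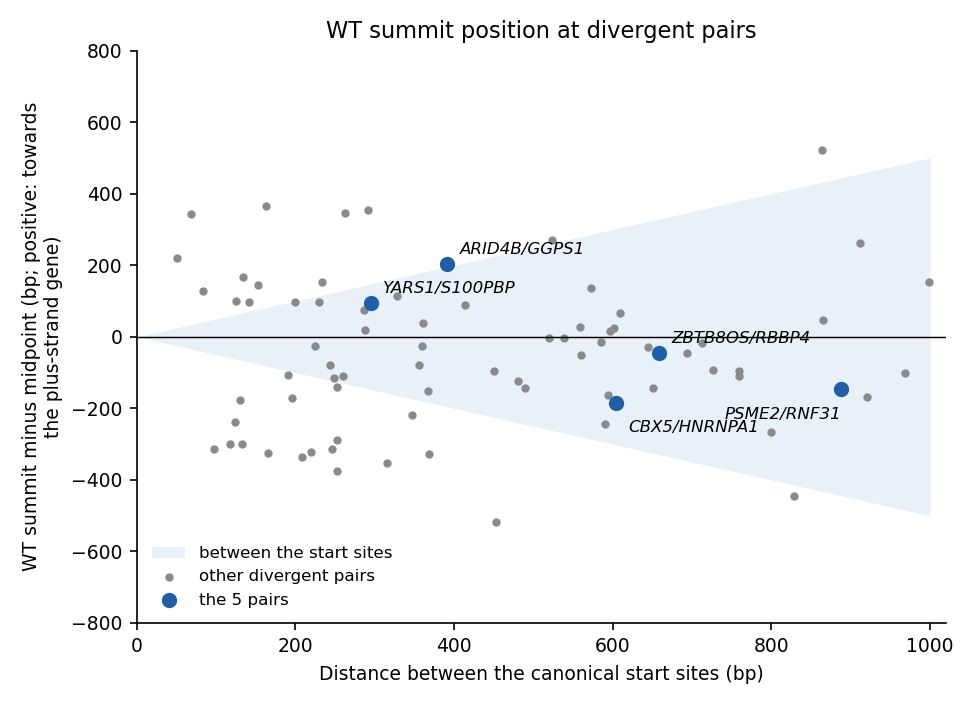
Distance of the WT summit from the midpoint (y axis, bp, positive towards the plus-strand gene) against the distance between the canonical starts (x axis, bp), for 78 divergent pairs with a WT peak; 4 more lie beyond the axis. The shaded wedge is the interval between the starts, and the 5 pairs (blue) have a summit inside it in 4 cases.

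In the 5 WT peaks, motifs lay mainly on the plus strand. These peaks held 13 motifs, of which 11 were on the plus strand and 2 on the minus strand (84.6% plus). The PSME2/RNF31 peak alone held 5 of the 11 and the ARID4B/GGPS1 peak 3. Motifs of 1 peak are not independent, so no interval is given. The plus-strand share in other WT peaks was not taken. Motifs on 1 strand only were found in 4 pairs, and RBBP4/ZBTB8OS had them on both. Among the 33 other divergent pairs with a motif in the WT peak, 5 had motifs on both strands (15.2%, interval 5.11 to 31.9%). A peak with 1 motif, such as that of CBX5/HNRNPA1, cannot hold motifs on both strands. These counts were not limited to peaks with more motifs, so nothing is read from them. By the canonical transcripts, 8 of the 13 motifs lay between the starts and 5 inside a gene, although 7 of the 8 lay wholly within an annotated UTR of another transcript. These 8 were all on the plus strand, at ARID4B/GGPS1, S100PBP/YARS1 and PSME2/RNF31, so that their G-rich strand was the coding strand of GGPS1, S100PBP or RNF31. Outside the peaks, 2 further motifs between the starts were on the minus strand, 1 at ARID4B/GGPS1 and 1 at PSME2/RNF31, to the left of the peak in each case. Over the interval between the starts and 500 bp to each side, whether or not a peak covered it, 13 of 19 motifs (68.4%) were on the plus strand. Plus and minus refer to the strands of the assembly.

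All 5 WT peaks held a motif (interval 47.8 to 100%). Among the other 432 WT peaks at protein-coding promoters 271 did (62.7%, interval 58.0 to 67.3%), and among the 77 other divergent pairs with a WT peak 33 did (42.9%, interval 31.6 to 54.6%). The peaks of the 5 pairs were also longer, with a median of 758 bp against 440.5 bp, and the part of length in this share was not tested. In 200 bp around the summit, 3 of 5 peaks held a motif, the exceptions being CBX5/HNRNPA1 and RBBP4/ZBTB8OS. Of the 271 other WT promoter peaks with a motif, 158 (58.3%, interval 52.2 to 64.2%) had one within 100 bp of the summit, a similar share. With loops of at most 7 bases, 3 of 5 held one, at ARID4B/GGPS1, S100PBP/YARS1 and PSME2/RNF31. The distance from summit to nearest motif had a median of 45 bp in the 5 pairs and 55 bp in the 271 other promoter peaks with a motif.

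The 5 promoters differed in CpG content. The CpG observed to expected ratio of the WT peak, which is the count of CpGs over that expected from the C and G content, was 0.832 at ARID4B/GGPS1 (48 CpGs), 0.845 at CBX5/HNRNPA1 (55 CpGs) and 0.925 at RBBP4/ZBTB8OS (75 CpGs). It was lower at S100PBP/YARS1, with 0.733 (48 CpGs), and lowest at PSME2/RNF31, with 0.566 (24 CpGs). GC content ran in another order, from 53.0% at CBX5/HNRNPA1 through 56.7% at ARID4B/GGPS1, 61.4% at RBBP4/ZBTB8OS and 63.8% at PSME2/RNF31 to 68.4% at S100PBP/YARS1. By the usual CpG island thresholds (at least 200 bp, a GC content over 50% and a ratio over 0.6), 4 of 5 peaks were island-like and PSME2/RNF31 was not. Of the other 432 WT peaks at protein-coding promoters 364 were (84.3%, interval 80.5 to 87.6%), with a median ratio of 0.780.

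**Figure D3:**
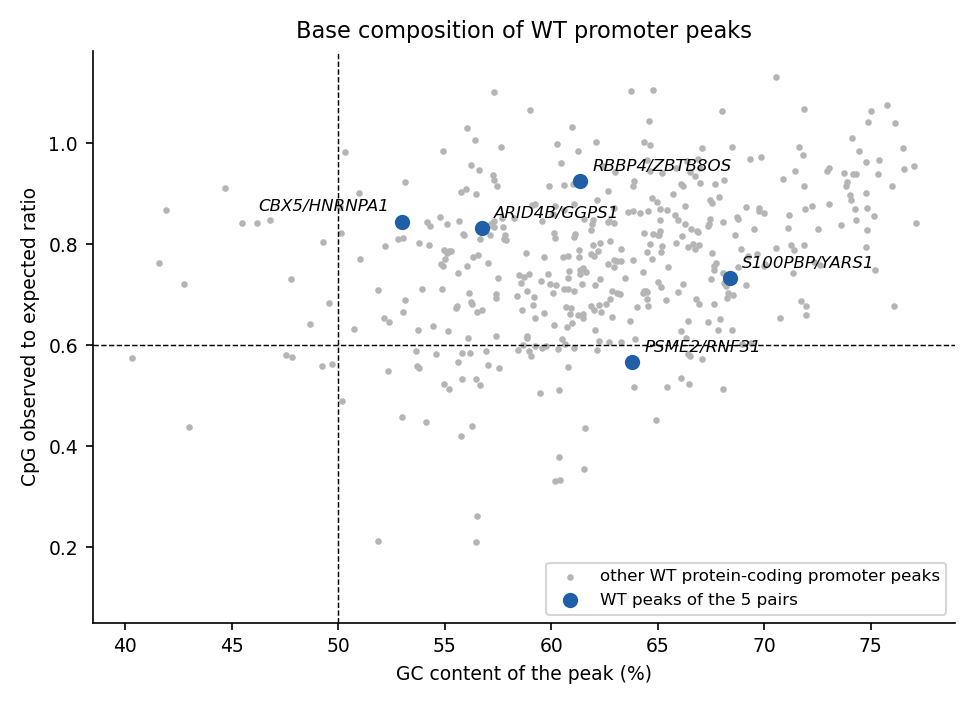
CpG observed to expected ratio (y axis) against GC content (x axis, %) of WT peaks at protein-coding promoters, with the 5 pairs in blue and the other 432 in grey. Dashed lines are the thresholds of 0.6 and 50%, and only PSME2/RNF31 among the 5 falls below the ratio threshold, at 0.566.

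CpGs were also found inside the motifs. Of the 13 motifs in WT peaks, 12 held at least 1 CpG, with 27 CpGs in all (median 2, highest 6 in the motif in the RBBP4 5′ UTR). In the other WT promoter peaks, 464 of 513 motifs did (90.4%), also with a median of 2. Methylation of these CpGs was not analysed here. Along the promoters, CpG density within 500 bp of the midpoint was 7.32 per 100 bp at ARID4B/GGPS1, 5.93 at CBX5/HNRNPA1, 7.61 at RBBP4/ZBTB8OS, 7.46 at S100PBP/YARS1 and 5.51 at PSME2/RNF31. Beyond 1 kb it was 1.60 to 2.98 at 4 pairs, and 6.07 at ARID4B/GGPS1, where the highest density, 19 per 100 bp, lay 1075 bp from the midpoint on the ARID4B side. The summits did not sit at the densest point, with a density at the summit of 10, 7, 4, 7 and 3 per 100 bp in the same order of pairs.

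**Figure D4:**
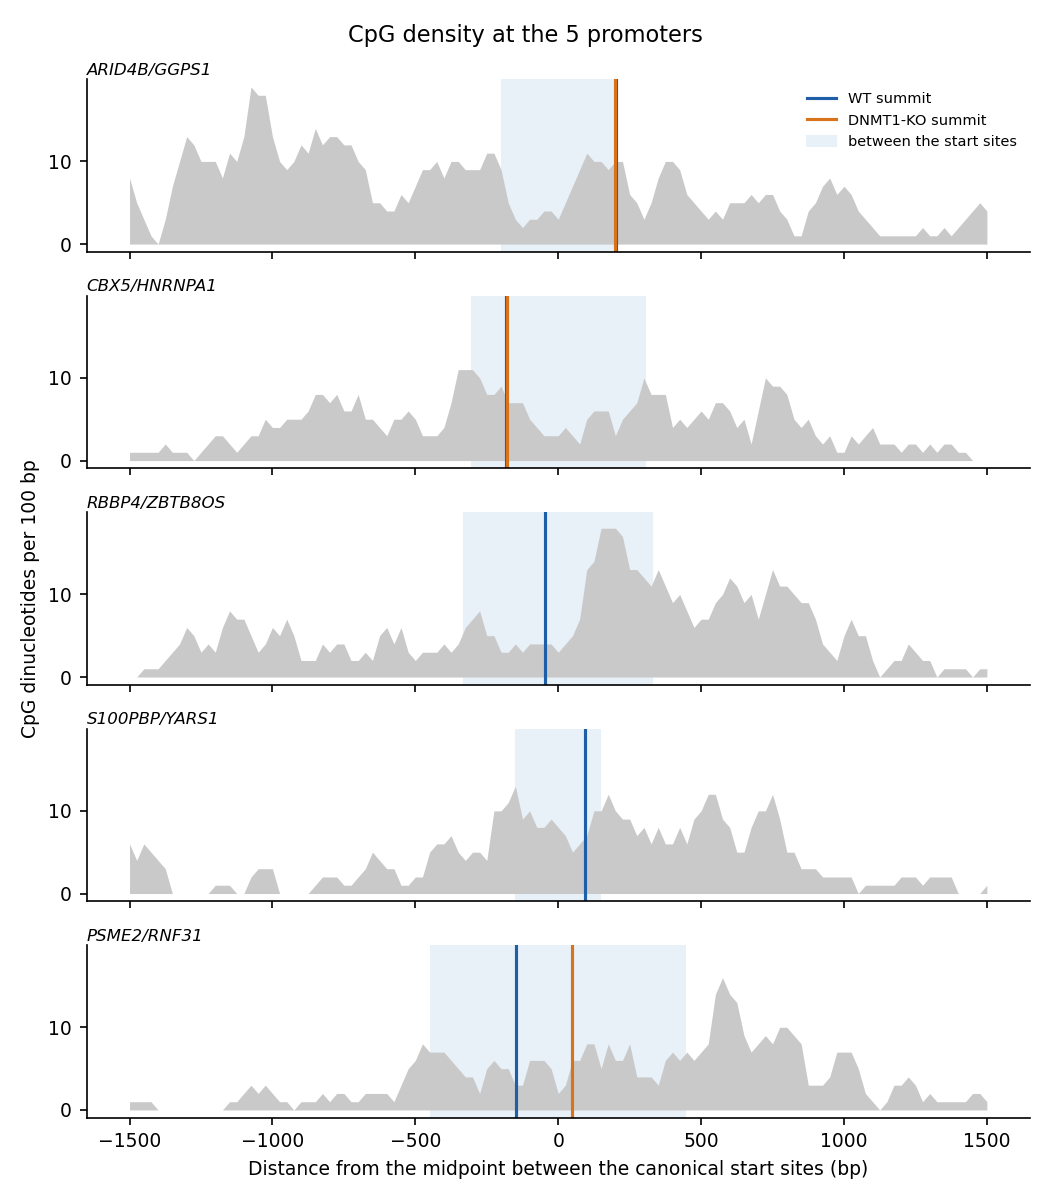
CpG dinucleotides per 100 bp (y axis) in windows of 100 bp along the 5 promoters, by distance from the midpoint between the starts (x axis, bp). The shaded span is the interval between the starts, and blue and orange lines are the WT and DNMT1-KO summits; at RBBP4/ZBTB8OS the WT summit has 4 CpGs per 100 bp while the maximum of 18 lies 150 bp to the right of the midpoint.

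Promoter elements known from other genes were looked up by their letters on both strands between the canonical starts. The GC box (GGGCGG) occurred 17 times, in all 5 pairs, and 5 of these lay inside a motif shown above, 2 each at ARID4B/GGPS1 and S100PBP/YARS1 and 1 at PSME2/RNF31. CCAAT occurred 15 times, in all 5 pairs, of which 7 were at CBX5/HNRNPA1. The YY1 core (ATGGCGG) occurred once each at CBX5/HNRNPA1, 15 bp from the WT summit, and RBBP4/ZBTB8OS. The NRF1 core (GCATGCG) was found on both strands of 1 overlapping site at CBX5/HNRNPA1, and the ETS core (CCGGAAG) once at PSME2/RNF31. TATAAA was not found in these intervals.

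In the RefSeq promoter table (GRCh38.p14, 250 bases before to 50 after each start), 8 of the 10 genes matched, with 17 promoters, all but HNRNPA1 and YARS1. The GC box was in 13 of 17, against 45.0% of all 35116 promoters, CCAAT in 9 of 17 against 34.6%, the YY1 core in 5 of 17 against 5.55%, and TATAAA in 0 of 17 against 11.5%. The ETS core was in 2 of 17 against 10.3%, and the NRF1 core in 1 of 17 against 3.91%. Promoters of 1 gene overlap each other, so the 17 are not independent, and a match of letters is not a binding site. Divergent pairs alone are a closer background. In the 300 bp at the midpoint, the GC box was in 3 of the 5 pairs and in 72.5% of all 912, CCAAT in 3 of 5 and 42.7%, the ETS core in 0 of 5 and 30.6%, the YY1 core in 0 of 5 and 12.2%, the NRF1 core in 0 of 5 and 7.57%, and TATAAA in 0 of 5 and 4.28%.

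Between the genotypes, 3 of the 5 pairs had a peak in both lists and 2 in the WT list only. Of the 77 other divergent pairs with a WT peak, 3 (3.9%) had a DNMT1-KO peak. Since the 5 pairs were chosen with the lists known, nothing is read from the difference. Of the pairs without a DNMT1-KO peak, RBBP4/ZBTB8OS had 36 WT fragments and S100PBP/YARS1 41, and PSME2/RNF31, with a peak in both lists, had 27. Whether WT signal bears on the presence of a DNMT1-KO peak was not tested. The nearest DNMT1-KO peaks were 25668992 and 25817645 bp from any start of RBBP4/ZBTB8OS and of S100PBP/YARS1. The lowest fragment count of a DNMT1-KO peak was 11 in the whole list and 15 at protein-coding promoters. Calling also depends on the local background, and the lists give no value for a site without a peak, so the signal at these 2 pairs in DNMT1-KO is unknown.

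At the 3 shared promoters fewer fragments lay over the DNMT1-KO summit, and the local background was lower as well. The DNMT1-KO to WT ratio of fragments was 0.443 at ARID4B/GGPS1 (interval 0.312 to 0.622), 0.431 at CBX5/HNRNPA1 (0.249 to 0.724) and 0.778 at PSME2/RNF31 (0.418 to 1.43). The ratio of the local backgrounds was 0.432, 0.508 and 0.664. On the log2 scale the fragments fell by 1.17, 1.21 and 0.36 in the same order and the background by 1.21, 0.98 and 0.59. The ratios are not scaled for library depth, which the lists do not give, and fold enrichment, which is taken over the local background, went from 10.3 to 9.53, from 9.10 to 6.77 and from 6.11 to 6.51.

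The same held at most other shared promoters. Over 26 other pairs of overlapping peaks at protein-coding promoters, the log2 ratio of fragments had a median of -0.55 (range -1.15 to 0.43), with 24 of 26 lower in DNMT1-KO, and that of the background a median of -0.58, with 25 of 26 lower and the lowest at -1.17. The fragment ratios of ARID4B/GGPS1 (-1.17) and CBX5/HNRNPA1 (-1.21) were just below the lowest of the others, by less than their counting intervals, and the background ratio of ARID4B/GGPS1 (-1.21) was likewise just below its lowest. PSME2/RNF31 was inside both ranges. How far library depth enters the ratios was not tested.

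**Figure D5:**
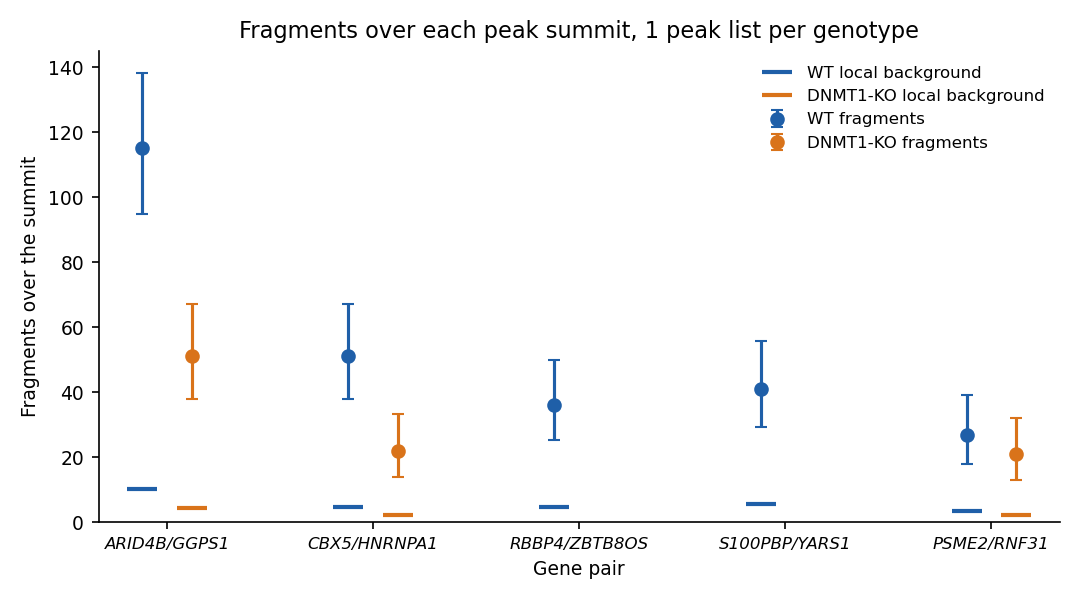
Fragments over the summit (y axis) for each pair (x axis), with 95% Poisson intervals as bars and the local background as dashes, in the 1 WT (blue) and 1 DNMT1-KO (orange) list. ARID4B/GGPS1 has 115 WT and 51 DNMT1-KO fragments, the other 4 pairs 27 to 51 in WT, and RBBP4/ZBTB8OS and S100PBP/YARS1 have no DNMT1-KO peak.

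Proximity to the 1 kb limit did not decide any member. Each WT peak touched an annotated start of the plus-strand gene, and the largest distance from a peak to the nearest start of a gene of its pair was 95 bp, from the DNMT1-KO peak to ARID4B. A limit of 3 kb added no pair to the DNMT1-KO list.

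Paralogs and partners of the 10 genes were looked up in the same way, in a list that was drawn up with earlier results of these data known. Of 28 such genes 3 (10.7%) had a WT promoter peak, against 2.89% of all 19970 protein-coding genes, and 1 had a DNMT1-KO peak, against 0.255% of all protein-coding genes. CBX3, a second HP1 gene, and HNRNPA2B1, a relative of HNRNPA1, shared 1 WT peak with 31 fragments and no motif. They are themselves a divergent pair, with starts 999 bp apart. ARID4A, the paralog of ARID4B, had a WT peak with 23 fragments and 1 motif on the minus strand. HNRNPA0 had a DNMT1-KO peak only, with 22 fragments and 2 motifs on the minus strand. No other subunit on the list of the SIN3A, tRNA ligase, proteasome activator or linear ubiquitin complexes had a peak in either list.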

How the data were processed

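Deposited peak lists of G4 CUT&Tag were used, 1 from WT and 1 from DNMT1-KO cells. By the notes and methods of the study, reads were trimmed with Trim Galore (version 0.6.7), aligned to hg38 with Bowtie2 (version 2.4.5), cleared of duplicates with Picard and of blacklisted regions, and peaks were called with MACS2; the submitters' processing notes give MACS2 version 2.2.7.1 and the methods another. The study made CUT&Tag libraries from several batches of cells, merged them for its signal tracks and used IgG as background for these. Whether the deposited lists were called on merged replicates or against a control is not given in the sources used here. The deposited fold enrichment is a ratio to the local background at the same site, and the −log10 p-value and −log10 q-value, also deposited, belong to the same summit. The deposited score, a truncated form of the −log10 q-value, was not used.

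Peaks were matched to starts of GENCODE release 44. Sequence names followed Ensembl and all peak ends fell within the hg38 lengths. Coordinates are 1-based. Divergent pairs were adjacent protein-coding genes with canonical starts, minus strand to the left, at most 1000 bp apart. The number of fragments over a summit was recovered from the fold enrichment (pseudocount 1) and −log10 p-value, and 99.6% of WT and 100% of DNMT1-KO values came out whole within 0.02. The recovery and motif search were checked on constructed data with known answers. Motifs were found with a regular expression, while the study used another program. Intervals (95%) were exact Poisson, Clopper-Pearson or conditional binomial, and cover counting error only; peaks are not replicates and fragments not independent molecules. The total depth of the libraries is unknown. No test was made.

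The 5 pairs and all lists were chosen with earlier results of these data known. Named were the 10 genes, any of 28 paralogs and partners with a promoter peak, and other divergent pairs with a peak in both lists or among the 5 of highest WT −log10 p-value. RSRC2/KNTC1 falls outside this rule and was named after its values were seen. Alternatives covered the promoter distance, the starts used, a fold enrichment threshold, the overlap, the motif definition and window, and the pseudocount. Python 3.11.15, numpy 2.4.6, pandas 2.3.3, scipy 1.17.1 and matplotlib 3.10.9 were used.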

Additional observations from a re-analysis of the deposited data

How the results depend on the processing

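Of 29 alternatives, 17 left the value within the same range and 12 moved it. With only the peaks whose fold enrichment reached the median of the list, 2 of the 5 pairs had a WT peak and 1 a DNMT1-KO peak, and 47 and 2 of all divergent pairs did instead of 82 and 7. Starts at most 500 bp apart left 754 divergent pairs, of which 51 (6.76%) and 4 (0.531%) had a peak. Loops of at most 7 bases left a motif in 3 of the 5 peaks, with 100% of their 4 motifs on the plus strand, and 200 bp around the summit also left 3. With the outermost annotated starts 5 summits lay between the starts and with the innermost 0, although an interval was left in only 3 of the 5 pairs. The median CpG observed to expected ratio was 0.678 in 200 bp around the summit, against 0.832 in whole peaks. Without the pseudocount, 20% of the 5 WT fragment counts came out whole, against 100%. Promoter limits of 500 bp and 3 kb and canonical starts alone left the 5 and 3 pairs as they were. No paired analysis was possible because each genotype has 1 peak list, and no replicate could be left out for the same reason.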

Other observations

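Outside the 5 pairs, 3 divergent pairs had a peak in both lists. GART/SON had 38 fragments over the WT summit and 25 over the DNMT1-KO summit, which lay 399 bp nearer to SON, with a motif in the WT peak and none in the DNMT1-KO peak. H2BC11/H2AC11 had 38 and 21, with both summits at 4.03% of the way from H2BC11 to H2AC11, and MYO9A/SENP8 had 24 and 18, with both summits outside the interval between the starts. GART encodes an enzyme of purine synthesis and SON a splicing cofactor. Only RSRC2/KNTC1 had a DNMT1-KO peak without a WT peak, with 15 fragments.

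By −log10 p-value, ARID4B/GGPS1 and CBX5/HNRNPA1 were the first and second of the 82 divergent pairs with a WT peak, S100PBP/YARS1 the 18th, RBBP4/ZBTB8OS the 25th and PSME2/RNF31 the 51st. The 5 highest of the other pairs were CRYZL1/ITSN1 (30.2), C6orf52/PAK1IP1 (29.8), CDCA3/USP5 (29.5), PPAT/PAICS (28.6) and DEAF1/TMEM80 (27.9). PPAT and PAICS both encode enzymes of purine synthesis. A motif lay in the peaks of CRYZL1/ITSN1 and CDCA3/USP5, and in none of the other 3.

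Genes of divergent pairs had a WT promoter peak in 162 of 1824 cases (8.88%, interval 7.62 to 10.3%), and other protein-coding genes in 416 of 18146 (2.29%, interval 2.08 to 2.52%). A single peak between divergent starts counts for both genes.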
